A study of Homo sapiens with 6 samples.

Results

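The nascent RNA of 42 genes that copy DNA or supply its building blocks was followed by Bru-seq in HCT116, an established human colorectal carcinoma line. The genes were taken by name and cover 10 roles, from the factors that license replication origins to the enzymes that make deoxynucleotides. All 42 were found, each as 1 row for its own strand, among 22984 such rows in each library. In Bru-seq, bromouridine is added to living cells, and the RNA that took it up is captured with an antibody and sequenced, so that reads come from exons and introns of RNA made during the labelling. Labelling lasted 30 min here.

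Each of 6 cultures gave 1 library. DMSO cultures 1 and 2 received 0.01% DMSO for 4 h, and 1 culture received siRNA at 10 nM for 24 h (siGSTO1) against GSTO1, a redox enzyme of the glutathione transferase family. The siRNA time is that of the sample label, and the methods text can be read as giving 4 h instead. Others received C1-27, an inhibitor of GSTO1, at 1 μM for 4 h or for 24 h, and 1 received C1-14, an inactive analogue, at 10 μM for 4 h. All were the same cell line with no engineered allele named in the labels. A DMSO culture at 24 h and a culture with non-targeting siRNA were not analysed here. The siRNA, its transfection and the longer time therefore cannot be told apart in the siGSTO1 values. Nor can the compound and the longer time be told apart in the values of C1-27 at 24 h. Only DMSO had more than 1 culture, and the labels do not say whether those 2 were grown independently, so any p-value below measures the spread between them, which may be technical.

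Before S phase, origins are licensed when CDC6 and CDT1 load the ring-shaped MCM2-7 complex on DNA, and geminin (GMNN) binds CDT1 to prevent a further round. At the start of S phase CDC45 and the GINS complex join MCM2-7, with the help of MCM10, to form the active helicase. Polymerase alpha-primase then lays down primers, polymerases epsilon and delta extend them on a sliding clamp (PCNA) loaded by the RFC complex, RPA coats single-stranded DNA, and FEN1 and LIG1 finish the lagging strand. Ribonucleotide reductase (RRM1, RRM2), thymidylate synthase (TYMS) and thymidine kinase 1 (TK1) supply deoxynucleotides. Many of these genes are known targets of the E2F transcription factors, which the RB protein family holds back outside S phase.

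Sense-strand counts came to between 18112861 and 36841146 per library. The line's epithelial markers EPCAM, KRT8, KRT18 and KRT19 were all transcribed. EPCAM had an RPKM (reads scaled to gene length and to the mapped reads of the library) of 2.91 to 3.89. CDH1, a further epithelial marker, had counts of 1035 to 1834 but a low RPKM of 0.321 to 0.617, which overlaps that of PECAM1 below. The leukocyte gene PTPRC and the fibroblast gene COL1A2 had at most 4 and 1 counts in any library. The other genes that a pure line should lack were low too, with at most 2 counts for CDH5 and 19 for ALB, and an RPKM of at most 0.374 for PECAM1 and 0.313 for COL1A1. GSTO1, the targeted gene, had an RPKM of 3.51 and 3.72 in DMSO, 2.70 with siGSTO1, 3.78 and 4.21 with C1-27 at 4 h and 24 h, and 3.82 with C1-14. It was thus lowest in the library labelled siGSTO1, at 0.747 of the DMSO mean, without passing edgeR's quasi-likelihood test (adjusted p = 0.33). An siRNA acts on mature RNA, which Bru-seq does not measure.

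In DMSO the replication genes were well transcribed, with a median RPKM of 2.33. The median member lay above 87.6% of the genes larger than 300 bp that had reads in DMSO. RRM2 was the highest with a mean RPKM of 13.4, followed by MCM3 at 8.62, PCNA at 5.95, TYMS at 5.90, CDC6 at 5.75, MCM7 at 5.58 and GMNN at 5.27. POLD1, the catalytic subunit of polymerase delta, was at 0.876, and RPA3, the smallest RPA subunit, was far below all others at 0.0712. In this order the ranges of the DMSO cultures overlapped between 34 of 41 neighbouring pairs, so most neighbours could not be ranked. The gap from RRM2 to MCM3 was wider than either gene's range. The counts behind these values were at least 138 per gene and library.

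The DMSO cultures themselves set the scale for every difference. Culture 2 was below culture 1 at 30 of the 42 genes, against 58.6% of all genes, with a median ratio of 0.915 over the 41 that passed an RPKM of 0.5, against 0.948 over all genes. At 5 of them (MCM5, MCM7, POLD1, POLE3 and LIG1) culture 2 was lower by 1.4-fold or more, as were 16.3% of all genes. POLE3, a small histone-fold subunit of polymerase epsilon, had the lowest ratio, at 0.599. The other 37 agreed within 1.4-fold, RPA3 included.

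With siGSTO1 all 42 genes had an RPKM below the DMSO mean, against 50.1% of all genes that passed the filter. Fold changes are RPKM of the treated library over the mean of both DMSO libraries, and a gene was counted only where the average of its treated and DMSO values exceeded an RPKM of 0.5, which 41 of the 42 did (not RPA3). Among the 41 the median fold was 0.747, with a range from 0.594 for MCM5 to 0.994 for CDT1, while the median of all 8138 genes was 1.00. At 14 of them the RPKM was lower by 1.4-fold or more, against 6.48% of all genes, and at 0 it was higher by that much, against 10.5% of all genes. With RPKM rescaled by TMM factors 23 were lower by 1.4-fold or more (11.3% of all genes), and by DESeq2 size factors 27 were (13.7%). In 37 of 41 the siGSTO1 value lay below both DMSO cultures, as it did in 34.2% of all genes, and in 0 it lay above both, as in 35.2% of all genes. MCM7, CDT1, POLE3 and RPA2 lay between the cultures. In bulk RNA, fewer cells that transcribe a gene and less transcription per cell cannot be told apart.

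**Figure D1:**
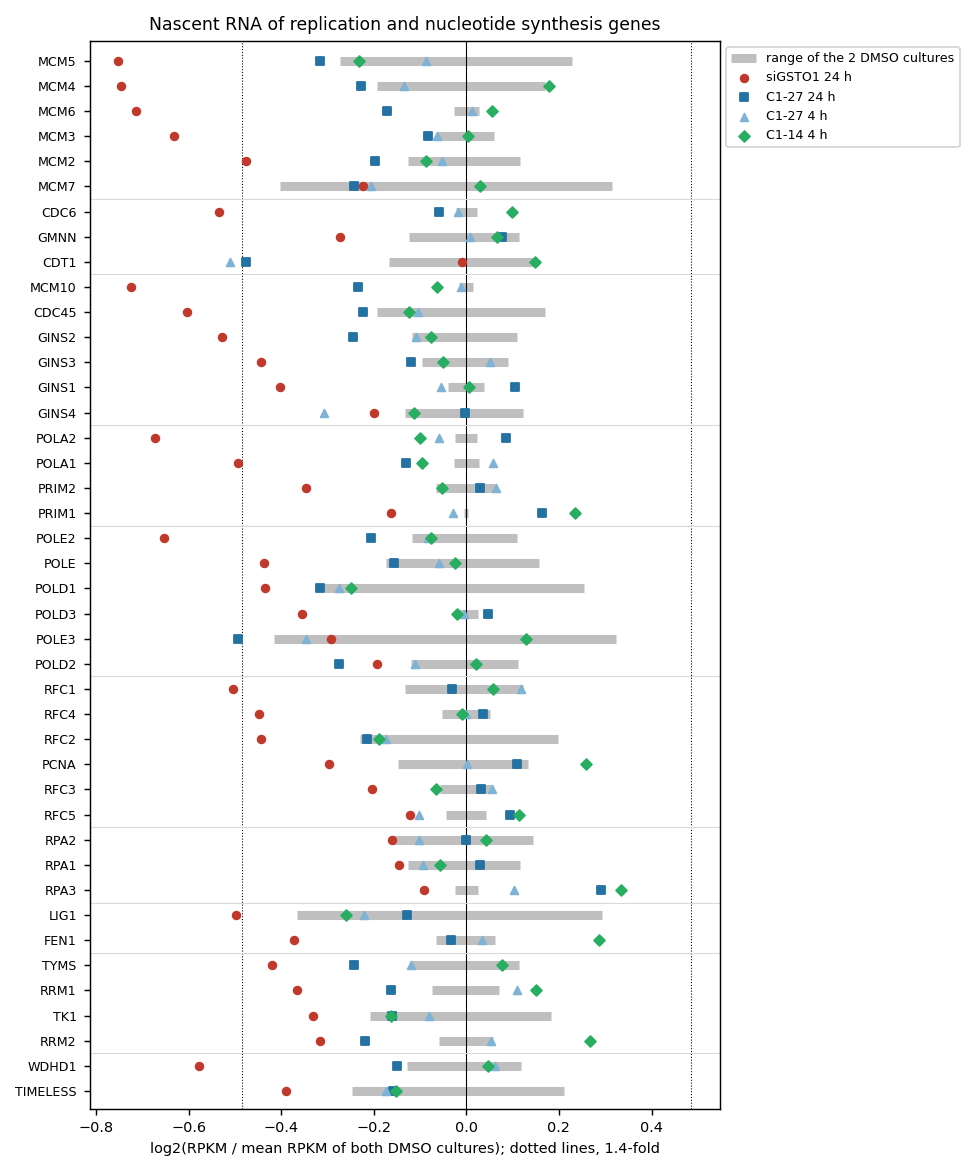
Log2 of RPKM over the DMSO mean (x axis) for each of the 42 genes (y axis, grouped by role), 1 point per treated library; grey bars span the 2 DMSO cultures and dotted lines mark 1.4-fold. The siGSTO1 points lie left of 0 throughout, from MCM5 at a fold of 0.594 to CDT1 at 0.994, whereas C1-14 points lie on both sides.

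By edgeR's quasi-likelihood test over 14431 genes, 4 of the 42 fell with siGSTO1 at an adjusted p under 0.05, against 1.16% of all genes, and 0 rose, against 3% of all genes. They were MCM4, MCM5 and MCM6, helicase subunits, and MCM10, the helicase activator. Without adjustment 20 were lower and 0 higher at a p under 0.05, against 5.19% and 9.09% of all genes, and all 42 had a negative log2 fold change, with a median of -0.52. The 4 calls rest on 1 residual degree of freedom and on the scaling. With DESeq2 size factors in edgeR only MCM4 and MCM5 passed (149 of 14431 genes were called lower). With library sizes alone only MCM10 and MCM6 did (151 of 14431). Without the count filter 0 passed (127 of 19020), and by DESeq2 0 passed (80 of 14431), the lowest adjusted p being 0.071 and 0.078. At an unadjusted p under 0.05 these last 2 fits gave 16 and 18 lower members, against 3.46% and 4.34% of all genes.

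The MCM2-7 subunits had the lowest median of any role with siGSTO1, a fold of 0.627. MCM5, at chr22:35796116-35820495 on the plus strand of hg19, had an RPKM of 2.86 and 2.02 in DMSO cultures 1 and 2, 1.45 with siGSTO1, 2.30 and 1.96 with C1-27 at 4 h and 24 h, and 2.08 with C1-14. MCM4, on chromosome 8, had 5.17 and 4.02 in DMSO, 2.74 with siGSTO1, 4.18 and 3.93 with C1-27 at 4 h and 24 h, and 5.20 with C1-14. MCM6, at chr2:136597196-136634011 on the minus strand, had 4.58 and 4.76 in DMSO, 2.85 with siGSTO1, 4.71 and 4.15 with C1-27 at 4 h and 24 h, and 4.86 with C1-14. For these 3 genes siGSTO1 was the lowest library and C1-27 at 24 h the next lowest, the latter also below both DMSO cultures. The edgeR log2 fold changes with siGSTO1 were -0.86 ± 0.27 (SE, adjusted p = 0.036) for MCM5, -0.86 ± 0.25 (adjusted p = 0.023) for MCM4 and -0.83 ± 0.26 (adjusted p = 0.037) for MCM6.

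The remaining subunits were lower to differing degrees. MCM2 had an RPKM of 2.52 and 2.14 in DMSO, 1.67 with siGSTO1, 2.25 and 2.03 with C1-27 at 4 h and 24 h, and 2.19 with C1-14, and its siGSTO1 fold of 0.719 lay just short of 1.4-fold. MCM3 had a fold of 0.646 with siGSTO1 (edgeR adjusted p = 0.080). MCM7 was the exception, with a fold of 0.857 and a siGSTO1 value of 4.78 between DMSO cultures at 6.94 and 4.22. The small RNA genes MIR25, MIR93 and MIR106B lie within the span of the MCM7 row, chr7:99690404-99699427, on the same strand. The counted length of the row, 8778 bp, is shorter than that span, so some bases were left out of it. Which bases these are is not given in the sources used here.

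Of the licensing factors, CDC6 was lower with siGSTO1 and CDT1 was not. CDC6, the ATPase that loads MCM2-7, had an RPKM of 5.83 and 5.66 in DMSO, 3.97 with siGSTO1, 5.67 and 5.51 with C1-27 at 4 h and 24 h, and 6.15 with C1-14. The DMSO cultures differed little here, and siGSTO1 lay at 0.680 and 0.701 of them (edgeR adjusted p = 0.13). CDT1, its loading partner, had 1.20 and 0.964 in DMSO, 1.08 with siGSTO1, 0.759 and 0.778 with C1-27 at 4 h and 24 h, and 1.20 with C1-14. Here both C1-27 libraries, and not siGSTO1, were the low ones. GMNN, which inhibits CDT1, had 4.84 and 5.71 in DMSO, 4.36 with siGSTO1, 5.31 and 5.56 with C1-27 at 4 h and 24 h, and 5.52 with C1-14. Only siGSTO1 lay outside the DMSO range of GMNN, at 0.827 of the mean.

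Among the 6 genes of helicase activation the siGSTO1 fold had a median of 0.714. MCM10, at chr10:13203554-13253104 on the plus strand, had an RPKM of 2.92 and 2.86 in DMSO, 1.75 with siGSTO1, 2.87 and 2.46 with C1-27 at 4 h and 24 h, and 2.77 with C1-14. Its siGSTO1 value was at 0.599 and 0.612 of the nearly equal DMSO cultures, with an edgeR log2 fold change of -0.84 ± 0.26 (SE, adjusted p = 0.030). CDC45 had a fold of 0.658, GINS2 of 0.693 and GINS3 of 0.735, each below both DMSO cultures. GINS1 had 2.12 and 2.01 in DMSO, 1.56 with siGSTO1, 1.99 and 2.22 with C1-27 at 4 h and 24 h, and 2.07 with C1-14. GINS4 had 1.33 and 1.12 in DMSO, 1.07 with siGSTO1, 0.989 and 1.22 with C1-27 at 4 h and 24 h, and 1.13 with C1-14. So 4 of these 6 genes had C1-27 at 24 h below both DMSO cultures, and GINS1 and GINS4 did not.

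The polymerase genes were all lower than the DMSO mean with siGSTO1, but unevenly within each enzyme. POLA2, the accessory subunit of polymerase alpha, had an RPKM of 1.56 and 1.62 in DMSO, 0.999 with siGSTO1, 1.53 and 1.69 with C1-27 at 4 h and 24 h, and 1.48 with C1-14. POLA1, its catalytic subunit, had 1.80 and 1.87 in DMSO, 1.30 with siGSTO1, 1.91 and 1.67 with C1-27 at 4 h and 24 h, and 1.71 with C1-14. The folds of 0.628 and 0.711 compare with ratios between the DMSO cultures of 1.03 and 1.04, and the edgeR adjusted p was 0.065 and 0.34. SCARNA23, a small RNA gene, lies within the span of the POLA1 row, chrX:24712064-25015102. The counted length of that row, 302909 bp, is also shorter than its span.

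The primase subunits were closer to DMSO. PRIM1, the catalytic subunit, had an RPKM of 1.17 and 1.18 in DMSO, 1.05 with siGSTO1, 1.15 and 1.32 with C1-27 at 4 h and 24 h, and 1.38 with C1-14. PRIM2, the large subunit, had 1.49 and 1.63 in DMSO, 1.23 with siGSTO1, 1.63 and 1.59 with C1-27 at 4 h and 24 h, and 1.50 with C1-14. PRIM2 has near-identical copies elsewhere in the genome, and how reads from these were assigned is not given in the sources used here. The siGSTO1 folds were 0.894 and 0.787, and the highest PRIM1 value was that of C1-14.

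For polymerases delta and epsilon the median siGSTO1 fold was 0.761. POLE2, the second subunit of polymerase epsilon, was the lowest at 0.635 (edgeR adjusted p = 0.051), followed by POLE at 0.738, POLD1 at 0.740 and POLD3 at 0.782. POLD1 had an RPKM of 1.04 and 0.708 in DMSO, 0.648 with siGSTO1, 0.723 and 0.703 with C1-27 at 4 h and 24 h, and 0.737 with C1-14, so that every treated library lay near or below the lower DMSO culture. POLD2 had 2.28 and 1.94 in DMSO, 1.84 with siGSTO1, 1.95 and 1.74 with C1-27 at 4 h and 24 h, and 2.14 with C1-14. POLE3 had 5.49 and 3.29 in DMSO, 3.58 with siGSTO1, 3.45 and 3.12 with C1-27 at 4 h and 24 h, and 4.80 with C1-14. The DMSO cultures of POLE3 lay further apart than any pair of its treated libraries.

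The clamp and its loader had a median siGSTO1 fold of 0.775. PCNA, the sliding clamp, had an RPKM of 5.37 and 6.53 in DMSO, 4.85 with siGSTO1, 5.95 and 6.42 with C1-27 at 4 h and 24 h, and 7.12 with C1-14. RFC1, the large loader subunit, had 2.60 and 3.10 in DMSO, 2.01 with siGSTO1, 3.09 and 2.79 with C1-27 at 4 h and 24 h, and 2.97 with C1-14. RFC2 had 2.81 and 2.09 in DMSO, 1.80 with siGSTO1, 2.17 and 2.11 with C1-27 at 4 h and 24 h, and 2.15 with C1-14. In all 3 genes siGSTO1 was the lowest library. RFC5 had 2.53 and 2.38 in DMSO, 2.26 with siGSTO1, 2.29 and 2.62 with C1-27 at 4 h and 24 h, and 2.66 with C1-14, with siGSTO1 and C1-27 at 4 h just below both DMSO cultures. RFC4 had a siGSTO1 fold of 0.733 and RFC3 of 0.868.

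The RPA subunits were the closest to DMSO of any role with siGSTO1, with folds of 0.903 for RPA1, 0.895 for RPA2 and 0.938 for RPA3, the last on an RPKM of only 0.0668. LIG1, the ligase that joins Okazaki fragments, had an RPKM of 1.28 and 0.812 in DMSO, 0.741 with siGSTO1, 0.898 and 0.957 with C1-27 at 4 h and 24 h, and 0.874 with C1-14. Its fold of 0.708 counts as past 1.4-fold, yet against DMSO culture 2 alone the ratio was 0.914. FEN1, the flap nuclease, had 4.87 and 4.46 in DMSO, 3.60 with siGSTO1, 4.77 and 4.56 with C1-27 at 4 h and 24 h, and 5.69 with C1-14. WDHD1, which ties polymerase alpha to the helicase, had 1.90 and 2.25 in DMSO, 1.39 with siGSTO1, 2.17 and 1.87 with C1-27 at 4 h and 24 h, and 2.14 with C1-14. For FEN1 and WDHD1 siGSTO1 lay below both cultures by more than the gap between them. TIMELESS, a fork protection gene, had a siGSTO1 fold of 0.763.

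The nucleotide supply genes formed a narrow group, with siGSTO1 folds from 0.747 to 0.803 and 0 of 4 past 1.4-fold. TYMS had an RPKM of 6.38 and 5.42 in DMSO, 4.41 with siGSTO1, 5.43 and 4.99 with C1-27 at 4 h and 24 h, and 6.23 with C1-14. RRM2, the regulated subunit of ribonucleotide reductase, had 13.9 and 12.8 in DMSO, 10.7 with siGSTO1, 13.9 and 11.5 with C1-27 at 4 h and 24 h, and 16.1 with C1-14. RRM1, its large subunit, had 2.59 and 2.86 in DMSO, 2.11 with siGSTO1, 2.94 and 2.43 with C1-27 at 4 h and 24 h, and 3.02 with C1-14. In these 3 genes both 24 h libraries lay below both DMSO cultures, and in RRM1 and RRM2 C1-14 lay above them. TK1 had 4.21 and 3.21 in DMSO, 2.95 with siGSTO1, 3.51 and 3.31 with C1-27 at 4 h and 24 h, and 3.31 with C1-14, where only siGSTO1 left the DMSO range.

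**Figure D2:**
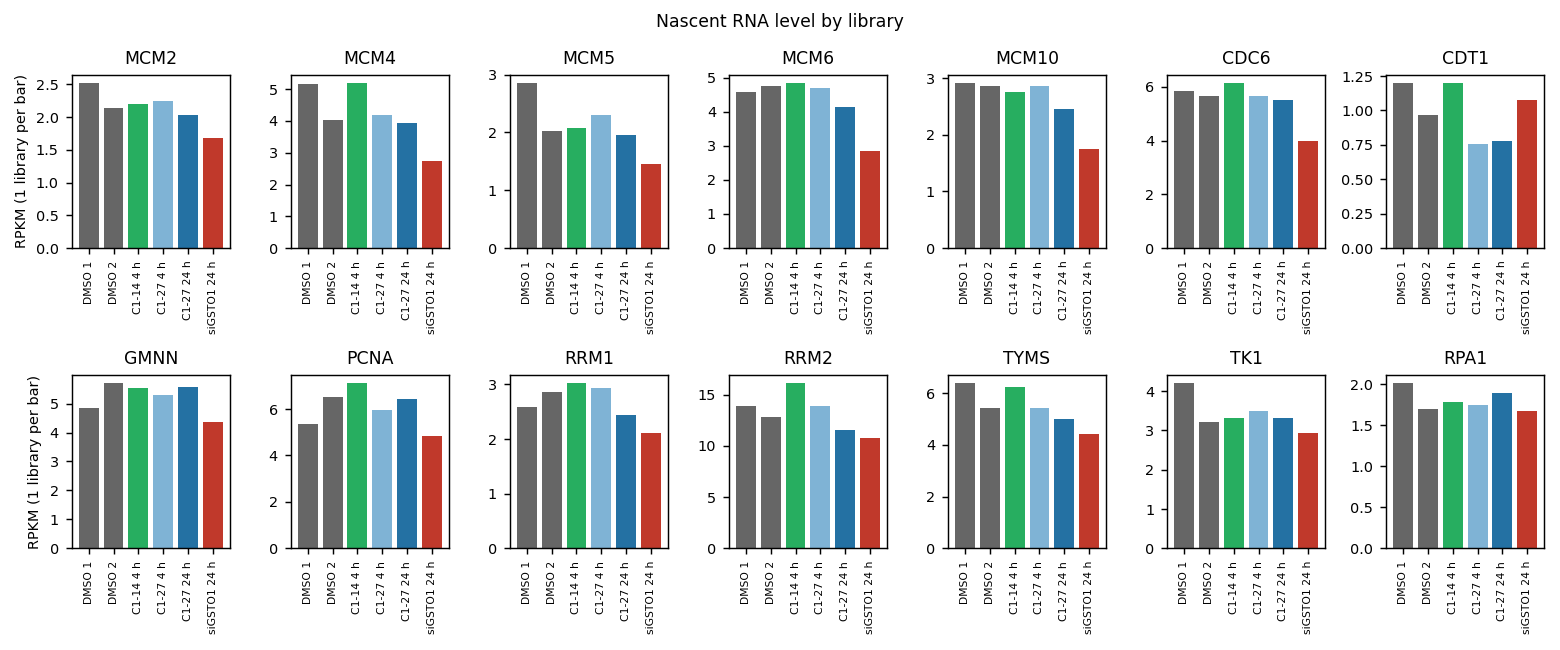
RPKM (y axis, from 0) of 14 of the genes, 1 bar per library and no error bars because a bar is 1 culture. siGSTO1 is the lowest bar for MCM4 (2.74), MCM6 (2.85) and MCM10 (1.75), whereas for CDT1 the lowest bars are C1-27 at 4 h (0.759) and 24 h (0.778).

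With C1-27 at 4 h the replication genes stayed close to DMSO. Their median fold was 0.960, against 0.993 over all genes, with a range from 0.701 for CDT1 to 1.08 for RFC1. Only CDT1 was lower by 1.4-fold or more (2.22% of all genes were), and 0 were higher by that much (0.457% of all genes were). The value lay below both DMSO cultures in 6 of 41 genes (CDT1, GINS1, GINS4, POLA2, PRIM1 and RFC5), against 18.9% of all genes, and above both in 3 (POLA1, PRIM2 and RRM1), against 21.6%. Either share of the members was below that of all genes. edgeR called 0 of the 42, also at an unadjusted p under 0.05, as did DESeq2, and edgeR called 0.0139% of all genes in either direction. Unadjusted, edgeR had 40 higher and 64 lower of 14431 genes, and DESeq2 15 and 3. After adjustment DESeq2 called 0 higher and 0 lower. The CDT1 count rests on DMSO culture 1, since without it 0 genes passed 1.4-fold and without culture 2 it was 5. The share of all genes was not counted for either choice.

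With C1-27 at 24 h the RPKM was below both DMSO cultures in 20 of 41 genes, against 21.5% of all genes, and above both in 5, against 36.8%. The median fold was 0.902, beside 1.02 over all genes, with DMSO taken at 4 h only. Of the 42 genes 30 were below the DMSO mean, against 44.4% of all genes. Among them were all 6 MCM2-7 subunits, from 0.803 for MCM5 to 0.944 for MCM3. So were the 4 nucleotide supply genes, from 0.846 for TYMS to 0.894 for TK1, though MCM7 and TK1 lay between the DMSO cultures. Fewer were below for polymerase alpha-primase (1 of 4), the clamp and its loader (2 of 6) and RPA (1 of 3). GINS1, POLA2, POLD3, PRIM1 and RFC5 were the 5 above both DMSO cultures, PRIM1 with the highest fold at 1.12. These differences were small, and only POLE3, at 0.710, was past 1.4-fold lower (3.49% of all genes were), and 0 were past 1.4-fold higher (3.23% of all genes were). edgeR called 0 of the 42, also without adjustment, as did DESeq2, and edgeR called 0.277% of all genes. Unadjusted, edgeR had 282 higher and 257 lower of 14431 genes at a p under 0.05, and DESeq2 123 and 128. After adjustment DESeq2 called 10 higher and 8 lower. The POLE3 value lay at 0.568 and 0.947 of DMSO cultures 1 and 2, so that its count too rests on culture 1. Leaving out culture 1 gave 0 genes past 1.4-fold and leaving out culture 2 gave 5, with the share of all genes not counted for either.

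The same dose of C1-27 was given for both times, and the later was set against the earlier. Without DMSO at 24 h, longer exposure to C1-27 and longer culture cannot be told apart in these ratios. The median ratio of 24 h to 4 h was 0.972, beside 1.03 over all genes, and ran from 0.827 for RRM2 to 1.23 for GINS4. At 0 of 41 genes was it lower by 1.4-fold or more (1.61% of all genes). By edgeR 0 of the 42 were called in either direction and 0 without adjustment, as by DESeq2, while edgeR called 0.104% of all genes. Unadjusted, edgeR had 206 higher and 149 lower of 14431 genes at a p under 0.05, and DESeq2 78 and 59. After adjustment DESeq2 called 2 higher and 3 lower. RRM1 and RRM2, the subunits of ribonucleotide reductase, had ratios of 0.828 and 0.827.

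With C1-14, the inactive analogue, the median fold was 0.993, beside 1.00 over all genes, and 21 of 41 genes were below the DMSO mean, as were 48.4% of all genes. None of the 41 was lower by 1.4-fold or more (1.01% of all genes) or higher by that much (3.71%). The value was below both DMSO cultures in 4 genes (MCM10, POLA1, POLA2 and RFC3), against 21.6% of all genes, and above both in 9, against 27.2%. Those 9 were MCM4, MCM6, CDC6, PRIM1, PCNA, RFC5, FEN1, RRM1 and RRM2, and FEN1 had the highest fold at 1.22. edgeR called 0 of the 42, also without adjustment, as did DESeq2, and edgeR called 0.118% of all genes. Unadjusted, edgeR had 162 higher and 43 lower of 14431 genes at a p under 0.05, and DESeq2 77 and 6. After adjustment DESeq2 called 2 higher and 0 lower. C1-14 was given at 10 μM and C1-27 at 1 μM, so the values stand side by side and were not compared.

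The siGSTO1 library was also set against that of C1-27 at 24 h, in ratios that use no DMSO value and in a test whose spread comes from the DMSO cultures. The siGSTO1 RPKM was below that of C1-27 in 38 of 42 genes, against 56.0% of all genes, with a median ratio of 0.798 beside 0.974 over all genes. The exceptions were MCM7 at 1.01, POLD2 at 1.06, POLE3 at 1.15 and CDT1 at 1.38. The ratio was lower by 1.4-fold or more in 6 genes (POLA2, MCM3, MCM6, MCM4, GINS1 and MCM10), against 4.6% of all genes, with POLA2 lowest at 0.591. By edgeR 0 of the 42 differed between these libraries (lowest adjusted p = 0.26), while 0.991% of all genes were called. Without adjustment 5 were lower with siGSTO1 at a p under 0.05 (1.97% of all genes were). That count became 1 with DESeq2 size factors (246 of 14431 genes) and 1 without the count filter (249 of 19020). By DESeq2 it was 3 (138 of 14431 genes), and 0 after adjustment.

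Other genes of the same processes were counted in 6 lists of the members' neighbours in function, with siGSTO1 against DMSO. Of all genes, 50.1% were below the DMSO mean, 6.48% past 1.4-fold lower and 10.5% past 1.4-fold higher. Of 19 other licensing and firing genes 16 were below the DMSO mean, 5 past 1.4-fold lower and 0 past 1.4-fold higher, with a median fold of 0.813. Of 16 other fork and chromatin assembly genes 13 were below, 3 past 1.4-fold lower and 0 higher, with a median of 0.812. Of 28 other nucleotide synthesis genes 24 were below, 6 past 1.4-fold lower and 1 higher, with a median of 0.786. The checkpoint and fork repair genes were similar, with 18 of 20 below, 6 past 1.4-fold lower, 0 higher and a median of 0.791. The 25 E2F, RB and S-phase entry regulators were more mixed, with 20 below, 4 past 1.4-fold lower, 2 higher and a median of 0.855. G2 and mitosis genes stood at the all-gene median, with 13 of 25 below, 0 past 1.4-fold lower, 2 higher and a median of 0.999.

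By edgeR genes of these lists both fell and rose with siGSTO1. UHRF1, which guides DNA methylation to newly copied DNA, had an RPKM of 2.53 and 2.22 in DMSO, 1.21 with siGSTO1, 2.21 and 1.91 with C1-27 at 4 h and 24 h, and 2.22 with C1-14 (log2 fold change with siGSTO1 -1.08 ± 0.26, SE, edgeR adjusted p = 0.0015). DUT, which removes dUTP, fell by 1.04 on the log2 scale (edgeR adjusted p = 0.0047). E2F8, a repressor of the E2F family, fell by 1.00 (adjusted p = 0.0063), and CDC25A, the phosphatase that activates CDK2, fell by 0.84 (adjusted p = 0.026). The CDC25A call was lost with DESeq2 size factors (adjusted p = 0.052), without the count filter (0.080) and by DESeq2 (0.11). These lower genes came from the fork, nucleotide and S-phase entry lists.

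The genes that rose were CDKN1A and RRM2B, both known p53 targets. CDKN1A, which encodes the CDK inhibitor p21, had an RPKM of 1.18 and 1.32 in DMSO, 6.79 with siGSTO1, 1.53 and 2.22 with C1-27 at 4 h and 24 h, and 1.78 with C1-14. Its siGSTO1 value was the highest by far, with a log2 fold change of 2.33 ± 0.29 (SE, edgeR adjusted p = 1.10e-12), and was also higher than that of C1-27 at 24 h by 1.55 on the log2 scale (edgeR adjusted p = 0.0027, and 0.0501 by DESeq2). RRM2B, the reductase subunit used outside S phase, had 1.03 and 1.20 in DMSO, 2.13 with siGSTO1, 1.26 and 1.62 with C1-27 at 4 h and 24 h, and 1.41 with C1-14. It rose by edgeR (log2 fold change 0.82 ± 0.25, SE, adjusted p = 0.031), while RRM1 and RRM2 lay below both DMSO cultures. The RRM2B call was lost with DESeq2 size factors (adjusted p = 0.062), without the count filter (0.069) and by DESeq2 (0.30). What part either gene had in the values of the replication genes was not tested. With C1-27 at either time or with C1-14, edgeR called 0 genes of the 6 lists. The G2 and mitosis list had a median fold of 1.11 with C1-14, with 2 of 24 genes below the DMSO mean, against 48.4% of all genes.

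**Figure D3:**
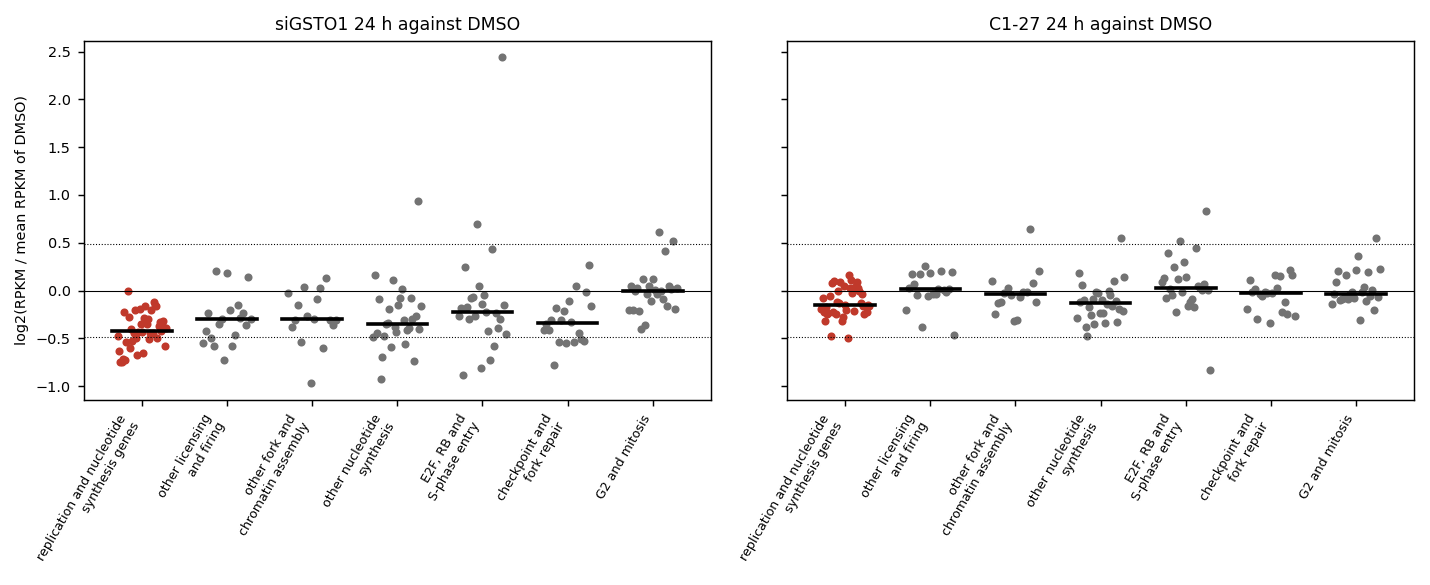
Log2 of RPKM over the DMSO mean (y axis) for the 42 genes (red) and the 6 other lists (grey) with siGSTO1 (left) and C1-27 at 24 h (right); each point is a gene passing the RPKM filter, bars are medians and dotted lines mark 1.4-fold. With siGSTO1 the medians run from a fold of 0.747 for the replication genes to 0.999 for G2 and mitosis genes, and the highest point is CDKN1A.

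Gene position offered a comparison that the choice of genes did not use. For 11 of the 42 a gene on the opposite strand starts within 1000 bp of their own start. Of the 9 such partners that passed the RPKM filter, 3 were below the DMSO mean with siGSTO1, where 50.1% of all genes were. The PCNA partner CDS2, 139 bp away, had a siGSTO1 fold of 1.67 beside 0.815 for PCNA, and the TK1 partner AFMID had 1.47 beside 0.794. The MCM4 partner PRKDC, the DNA-dependent protein kinase, starts 20 bp away and was the only one past 1.4-fold lower. PRKDC had an RPKM of 4.86 and 4.82 in DMSO, 3.21 with siGSTO1, 4.97 and 4.35 with C1-27 at 4 h and 24 h, and 4.93 with C1-14 (log2 fold change with siGSTO1 -0.71 ± 0.33, SE, edgeR adjusted p = 0.28).

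Reads from the strand opposite to the 42 genes were few. They summed to between 623 and 1314 per library, which is 0.532% to 1.00% of the sense reads, with siGSTO1 at the top of that range and with the lowest sense sum. Per 1000000 mapped reads the antisense sum was 26.6 and 25.7 in DMSO, 31.8 with siGSTO1, 30.2 and 28.6 with C1-27 at 4 h and 24 h, and 22.7 with C1-14. RFC4 held the most, from 227 to 492 reads. Over all genes the antisense reads came to 3.22% and 2.93% of the sense reads in DMSO and to 3.59% with siGSTO1. They came to 3.02% and 3.21% with C1-27 at 4 h and 24 h, and to 4.12% with C1-14. C1-14 thus had the highest share over all genes and the lowest over the 42.

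The genes span 3.51 to 331 kb, and in these libraries length moved with the ratio of the DMSO cultures. Spearman's rho between length and the ratio of culture 2 to culture 1 was 0.29, and between length and the siGSTO1 fold it was -0.26 (n = 42 genes, a description, since the genes share libraries). The 10 shortest genes had a median siGSTO1 fold of 0.815 and the 10 longest of 0.760. The part of length in the siGSTO1 values was not tested.

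Promoter sequence was examined as well, as a description without a test. RefSeq promoters (GRCh38.p14, 250 bases before to 50 after the start) were matched by symbol for 36 of the 42; RPA2, RPA3, POLD3, MCM4, MCM5 and GINS4 had no entry. The words TTTCCCGC, TTTGGCGC, TTTGCCGC and TTTCGCGC, forms of the E2F site, were searched on both strands. At least 1 was in 18 of 36 members, against 3.99% of 27305 genes and 7.51% of the 5901 genes that passed the siGSTO1 filter. CCAAT, the word read by the factor NF-Y, was in 21 of 36 (58.3%), against 39.7% of all genes and 44.1% of those passing the filter, and TTTGAA or TTCGAA, forms of the CHR element of mitotic genes, in 3 of 36 (8.33%), against 19.5% and 16.0%. The siGSTO1 fold had a median of 0.727 (range 0.609 to 0.994) in members with an E2F word and of 0.774 (range 0.605 to 0.919) in the 18 without, so the ranges overlapped widely. MCM10, at a fold of 0.605, had no E2F word in the window, and CDT1, at 0.994, had one.

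The windows below show what these words look like upstream of 2 helicase subunits that were low with siGSTO1 (MCM6 and MCM3), of PCNA, which was less so, and of MCM10, which has CCAAT words only. They are written 5′ to 3′ on the strand of the gene, in GRCh38.p14 coordinates, with E2F and CCAAT words in capitals on either strand. The MCM6 window is chr2:135876472-135876645 (minus strand, 202 to 29 bases before the start), that of MCM3 chr6:52284859-52284966 (minus strand), that of PCNA chr20:5126624-5126731 (minus strand) and that of MCM10 chr10:13161390-13161510 (plus strand).
MCM6: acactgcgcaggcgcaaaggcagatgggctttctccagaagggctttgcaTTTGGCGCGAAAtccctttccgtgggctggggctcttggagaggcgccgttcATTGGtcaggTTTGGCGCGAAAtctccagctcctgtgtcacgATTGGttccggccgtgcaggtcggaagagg
MCM3: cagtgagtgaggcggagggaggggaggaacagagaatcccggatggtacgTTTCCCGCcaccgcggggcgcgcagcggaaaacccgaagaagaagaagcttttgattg
PCNA: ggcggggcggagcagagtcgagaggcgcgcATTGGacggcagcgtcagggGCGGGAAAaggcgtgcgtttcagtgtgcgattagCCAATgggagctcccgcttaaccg
MCM10: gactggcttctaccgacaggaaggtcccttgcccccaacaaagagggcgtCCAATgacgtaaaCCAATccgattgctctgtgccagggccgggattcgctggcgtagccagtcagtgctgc
In MCM6 the run of letters TTTGGCGCGAAA occurs at 2 places and holds an E2F word on both strands, which gives 4 matches, and 2 CCAAT words lie between and after them. MCM3 and PCNA hold 1 E2F word each in these stretches. Outside its stretch MCM3 also has an E2F word at bases -4 to 3 from the start and CCAAT words at -242 to -238 and -84 to -80. Its CCAAT word at -120 to -116 is cut by the end of the stretch and so is not in capitals. A match is a run of letters and not a measured binding site.

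**Figure D4:**
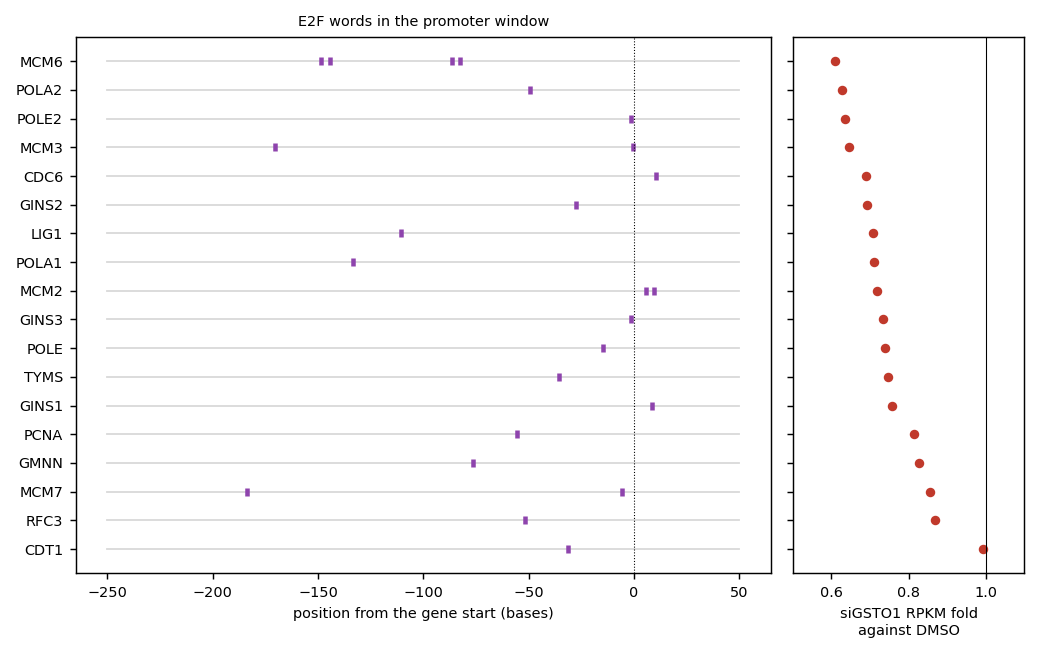
Left, positions of E2F words (ticks, bases from the gene start at 0) in the 300-base promoter windows of the 18 genes that hold one; right, their siGSTO1 RPKM fold against DMSO, 1 point per gene from 1 culture. The genes are ordered by fold, from MCM6 at 0.609 to CDT1 at 0.994, and words lie both before and after the start.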

How the data were processed

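The members and the gene lists were chosen with earlier results of these data known. The files deposited by the authors give, by gene and strand, expected counts (reads over exons and introns, not normalized, rounded here to whole numbers), a signal (the count per bp, used only to recover library totals) and RPKM made by the authors from gene length and mapped reads. The submitters' processing notes name hg19, CASAVA 1.8.2, Bowtie 0.12.8, TopHat 1.4.1 and bedtools 2.16.2. Sense counts per library were 18112861 to 36841146.

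Folds used RPKM over the mean of both DMSO libraries, with no pseudocount, for genes above 300 bp with a mean RPKM above 0.5. Each treatment had 1 culture, so folds have no replicate check. The counts of 14431 genes (size above 300 bp, 10 or more counts in 2 or more libraries) were fitted with edgeR 4.0.16 (R 4.3.3, TMM, quasi-likelihood test, 5 groups, 1 residual degree of freedom, common dispersion 0.0381), with Benjamini-Hochberg adjustment over all genes within each comparison and a threshold of 0.05. DESeq2 1.42.0, other scalings, filters, a pseudocount of 0.1 and leaving out either DMSO library were alternatives. The scripts were tested on simulated data. Python 3.11.15, pandas 2.3.3, scipy 1.17.1 and matplotlib 3.10.9 were used.

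Values in every library are given for members called by edgeR, for the 5 members with the largest fold in each direction against DMSO for each treatment, and for RRM1, RRM2, TYMS, TK1, PCNA, CDC6, CDT1, GMNN, MCM2 and MCM10. In the other lists, genes called by edgeR are named, except for 1 that is not reported here. PRKDC, CDS2 and AFMID were named after their values were seen.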

Additional observations from a re-analysis of the deposited data

How the results depend on the processing

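The siGSTO1 result kept its direction in every alternative run, with a median fold of 0.676 to 0.784 over the members. The number past 1.4-fold lower was 14, and 21 and 11 without DMSO culture 2 and without culture 1. Leaving out these cultures put the all-gene median at 0.969 and 1.04. The share of all genes past 1.4-fold was not counted for either, so 21 and 11 stand without a background. It was 23 with RPKM rescaled by TMM factors, which put the all-gene median at 0.923 and 11.3% of all genes past 1.4-fold lower, and 27 by DESeq2 size factors, which put these at 0.899 and 13.7%. The 4 edgeR calls became 2 with DESeq2 size factors, 2 with library sizes only, 0 without the count filter and 0 with DESeq2. Over all genes these fits called 149, 151, 127 and 80 lower. The same 4 genes were called under edgeR's newer quasi-likelihood estimate (175 of all genes lower), an alternative chosen after seeing the data.

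Counts for the compounds were small and unstable. The share of all genes past 1.4-fold was not counted for these alternatives, so the counts below stand without a background. For C1-27 at 4 h, 1 gene past 1.4-fold lower became 0 to 5 when a DMSO culture was left out, and 0 with TMM, with DESeq2 size factors, with a pseudocount of 0.1 or with mean RPKM above 1. For C1-27 at 24 h, 1 became 0 to 5 when a culture was left out, 2 with TMM, 2 with size factors and 0 with the pseudocount. For C1-14, 0 lower became 0 to 2 and 0 higher became 0 to 1 when a culture was left out. The cause was not tested. With siGSTO1, edgeR calls over all genes were 433 higher and 168 lower, and 130 and 80 by DESeq2. No paired analysis was possible because the groups compared share fewer than 2 replicate numbers. edgeR could not be run without a DMSO culture, since no residual degree of freedom is left.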
